A study of Rattus norvegicus with 8 samples.

Results

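A group of 8 genes of the aryl hydrocarbon receptor pathway was followed in the liver of adult male Sprague-Dawley rats. They were the receptor itself (Ahr), its dimer partner (Arnt), the chaperones of the unliganded receptor (Ptges3, Hsp90aa1 and Hsp90ab1) and the enzymes whose RNA marks receptor activity (Cyp1a1, Cyp1a2 and Nqo1). The members were chosen for their place in the pathway, with earlier results of these data known. Each was found on the array through its RefSeq accession and read from its probe of highest mean liver signal. They are 8 of 15154 genes that could be named on the array, and 6 of them were bright enough to be tested, as were 10004 named genes in all.

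The AhR-mixture group was offspring of dams given agonists of the receptor in corn oil, made up of polychlorinated dibenzofurans, polychlorinated dibenzodioxins and non-ortho-PCBs, at 1.8 ng per kg per day in dioxin toxic equivalents. The Control group was offspring of dams given corn oil only. Dosing of the dams ran from gestation day 0 to postnatal day 20, pups of both groups stayed with their birth mothers, and livers were taken at 78 to 86 days of age. Each group had 4 two-colour arrays, each with RNA pooled from 2 of its 8 pups in Cy5 and a universal rat reference RNA in Cy3. The labels do not say which pups shared a litter, so the p-values measure the spread between pools.

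In the resting cell the receptor sits in the cytoplasm with HSP90 and the co-chaperone p23, the product of Ptges3. A ligand such as a dioxin sends it to the nucleus, where it pairs with ARNT and binds DNA near its target genes. Cyp1a1 and Cyp1a2 encode P450 enzymes that oxidise planar aromatic compounds, and in liver Cyp1a2 is made without any inducer while Cyp1a1 is normally very low. Nqo1 encodes a quinone reductase that is also a target of the oxidative stress factor NRF2. Arrays of this kind measure RNA only, and neither receptor protein nor ligand in the tissue was measured.

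The pair of receptor and ARNT binds a DNA element whose core is GCGTG. The stretch of 250 bases before the annotated RefSeq gene start (assembly GRCr8) is shown for the marker enzymes that were measured on every array and had a RefSeq promoter entry, with any core element, on either strand, in capitals.
Nqo1: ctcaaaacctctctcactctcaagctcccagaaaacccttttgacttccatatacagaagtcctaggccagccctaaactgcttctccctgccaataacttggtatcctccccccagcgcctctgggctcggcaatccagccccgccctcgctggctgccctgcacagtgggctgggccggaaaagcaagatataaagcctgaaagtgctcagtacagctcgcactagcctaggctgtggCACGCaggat
Cyp1a2: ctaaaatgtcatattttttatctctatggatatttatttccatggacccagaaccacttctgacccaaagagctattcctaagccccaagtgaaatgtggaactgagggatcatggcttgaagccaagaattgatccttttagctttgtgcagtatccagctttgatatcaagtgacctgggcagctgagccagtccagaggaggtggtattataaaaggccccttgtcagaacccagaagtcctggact
The Nqo1 stretch is chr19:52220268-52220517 on the minus strand and the Cyp1a2 stretch is chr8:66978150-66978399 on the minus strand. Nqo1 held 1 core element, 10 bases before the start, which reads CACGC on the strand shown and GCGTG on the opposite strand. Cyp1a2 held 0 in these 250 bases. Of the other members with an entry, Ptges3 held 2, Arnt and Hsp90ab1 held 1 each and Ahr held 0. That made 4 of 6 members with the core, beside 25.9% of 33469 rat promoters of the same length. Those promoters were not matched for the share of G and C bases, so an excess among the members was not tested. This share was 56.4% to 70.4% in the 4 with the core, 75.2% in Ahr and 44% in Cyp1a2. A match is only a run of letters in this window.

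All 12 hepatocyte markers were bright enough to be tested. So were 10 of 11 Kupffer cell markers and 6 of 8 skeletal muscle markers, so being tested does not by itself identify the tissue. The median Cy5 signal per array ran from 116 to 151 units over a median background of 71.3 to 75.8, and Cy5 stood well above background for 56.2% to 62.0% of probes. All 8 arrays lay on 1 slide in 2 rows, each row with 2 arrays of each group, and arrays of the same replicate number lay in the same slide column. Values below are log2 ratios of liver (Cy5) over reference (Cy3) unless a signal is named, and since the reference is the same on every array a higher ratio means more of that RNA in the liver pool. In whole liver, fewer cells of a type and less RNA per cell cannot be told apart. Ratios of different genes come from different probes and are not set against each other.

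For none of the 6 tested members did the difference between the AhR-mixture and Control pools pass the test. With limma, 0% of the 17859 probes tested passed an adjusted p of 0.05, and 1.61% had an unadjusted p below 0.05. The groups did not overlap at 1.19% of probes. Among the 6 members, 0 had an unadjusted p below 0.05 and in 0 were the groups apart, and every member's adjusted p was 1.00 in limma. The differences ran from -0.35 for Nqo1 to 0.26 for Cyp1a2 on the log2 scale, with Ahr, Hsp90aa1 and Nqo1 lower and Ptges3, Hsp90ab1 and Cyp1a2 higher in the mean of the AhR-mixture pools. With 4 arrays against 4, the smallest p an exact two-sided permutation test can give is 0.0286.

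**Figure D1:**
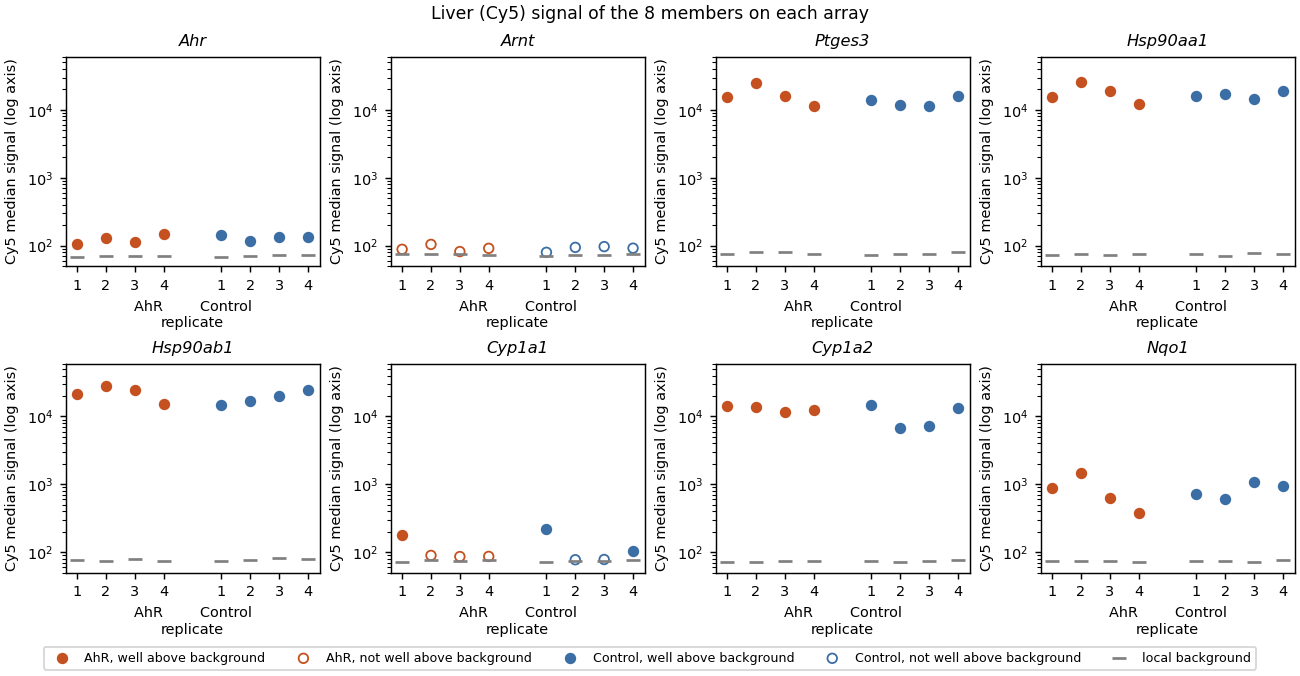
Cy5 (liver) median signal of each member on every array, on a log axis, with AhR-mixture pools left of Control pools and the local background as a grey bar. Filled points are well above background; Arnt has none, and Cyp1a1 has 1 among the AhR-mixture pools and 2 among the Control pools.

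Ahr, the receptor, gave a dim signal. Its log2 ratio was -0.61, -0.61, -0.57 and -0.07 in AhR-mixture replicates 1 to 4, against -0.19, -0.47, -0.46 and -0.34 in Control replicates 1 to 4. AhR-mixture replicates 1 to 3 lay below every Control pool and replicate 4 lay above all of them, so the groups overlapped. The difference was -0.10 (SE 0.13, 95% interval -0.40 to 0.20, n = 4 arrays per group; exact permutation p = 0.514, two-sided). Its raw Cy5 signal averaged 123 ± 18.4 units in AhR-mixture pools and 131.5 ± 11.2 units in Control pools (SD, n = 4 each), little over a local background of 67 to 72. With Agilent's processed signals, which differ in background treatment, dye normalization and offset, the same difference was -0.36. Replicate 1 of the AhR-mixture group had 1 of its 2 Ahr spots well above background, and both spots were so on every other array.

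Arnt, the partner that the receptor needs to bind DNA, was not measured in these livers. Its single spot had Cy5 signals of 88, 104, 81.5 and 91 units in AhR-mixture pools, against 79.5, 94, 96.5 and 91.5 units in Control pools. No array had the spot well above its background of 70 to 76 units, so no fold is given and the groups were not compared. Arnt outshone 93.2% to 99.7% of the 308 negative control spots on each array.

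The chaperones gave bright signals on every array. Ptges3, which encodes the p23 co-chaperone that steadies HSP90 on the receptor, had log2 ratios of 0.24, 0.17, 0.21 and 0.03 in AhR-mixture pools, against 0.09, 0.07, -0.17 and -0.01 in Control pools. Apart from AhR-mixture replicate 4, every AhR-mixture pool lay above every Control pool. The means were 0.16 ± 0.09 in AhR-mixture pools and -0.01 ± 0.12 in Control pools (SD, n = 4 each). They lay 0.17 apart (SE 0.10, 95% interval -0.04 to 0.38; exact permutation p = 0.0857, two-sided). Ptges3 was also the steadiest of the tested members between pools of 1 group, with a pooled SD larger than that of only 14.5% of the tested genes.

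Hsp90aa1, the stress-inducible cytosolic HSP90, had log2 ratios of 0.02, 0.18, 0.41 and -0.08 in AhR-mixture pools, against 0.44, 0.62, 0.02 and 0.14 in Control pools. The groups overlapped over most of their range. The difference was -0.17 (SE 0.15, 95% interval -0.50 to 0.17; exact permutation p = 0.371, two-sided, n = 4 each). A pair of other Hsp90aa1 probes gave differences of -0.03 and -0.17, but the probes disagreed on single arrays. On Control replicate 1 the chosen probe read 0.44 and the others -0.55 and 0.55.

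Hsp90ab1, the constitutive cytosolic HSP90, had log2 ratios of 0.44, 0.09, 0.44 and 0.22 in AhR-mixture pools, against -0.21, 0.17, 0.35 and 0.50 in Control pools. Control pools spanned the whole range of the AhR-mixture pools, with the lowest and the highest value both among them. The difference was 0.09 (SE 0.15, 95% interval -0.24 to 0.43; exact permutation p = 0.629, two-sided, n = 4 each). Without Control replicate 1, the lowest array on both Hsp90ab1 probes, it was -0.04. The second probe gave a difference of 0.06.

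Cyp1a1, the classical marker of receptor activation, was near the floor of the array in both groups. Its probe was spotted 10 times, and the mean Cy5 signal of these spots was 181, 89.6, 86.1 and 86.6 units in AhR-mixture pools, against 216, 77.3, 78.0 and 104 units in Control pools. Replicate 1 was the highest in both groups, and those arrays shared a slide column. Cy5 stood well above background on AhR-mixture replicate 1 and on Control replicates 1 and 4 only, so Cyp1a1 was not tested. The 10 spots agreed closely within an array, with SDs of 19.0 units on AhR-mixture replicate 1 and 21.9 units on Control replicate 1 and of 4.12 to 7.46 units on the others. On both replicate 1 arrays their mean exceeded 100% of the 308 negative control spots, and on Control replicates 2 and 3 it exceeded 89.3% and 90.9%.

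The same spots were bright in the reference channel, at 2595 to 3758 Cy3 units across the arrays. The log2 ratio on the arrays with measurable liver signal was -4.77 in AhR-mixture replicate 1, against -4.28 and -5.79 in Control replicates 1 and 4. On the remaining arrays only the reference side was measured. No dyes were swapped, so a ratio between channels is open to dye bias.

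**Figure D2:**
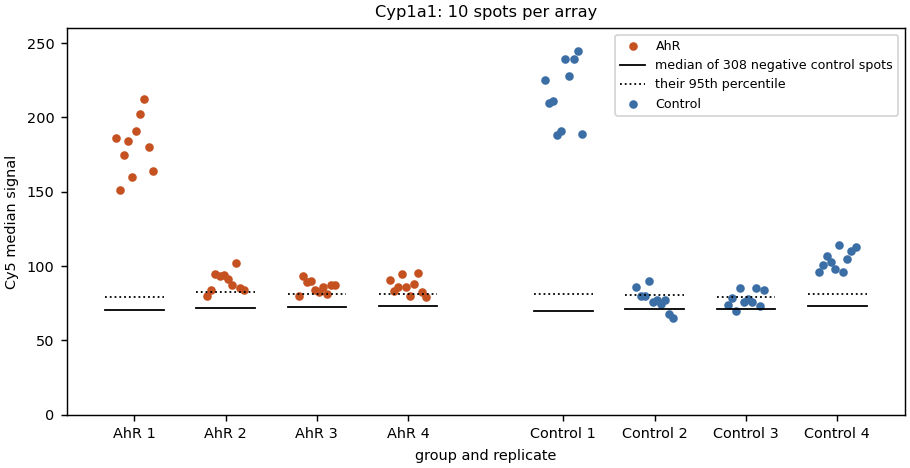
Cy5 median signal of each of the 10 Cyp1a1 spots per array, AhR-mixture pools left of Control pools, with the median (solid line) and 95th percentile (dotted line) of the 308 negative control spots of that array. Spots of replicate 1 in both groups stand clear of the negative controls. On Control replicates 2 and 3 and AhR-mixture replicates 2 to 4 all spots lie between the lowest and the highest negative control. On those AhR-mixture arrays most spots lie above the 95th percentile.

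Cyp1a2, the constitutive hepatic member of the family, was bright on every array and varied more between pools than most genes. Its log2 ratio was -1.01, -1.93, -1.52 and -1.0 in AhR-mixture pools, against -1.24, -2.04, -1.96 and -1.27 in Control pools. Replicates 1 and 4 were high and replicates 2 and 3 low in both groups. The difference was 0.26 (SE 0.25, 95% interval -0.28 to 0.81; exact permutation p = 0.400, two-sided, n = 4 each). The spread between pools was as wide as in few other genes: the pooled SD of 0.44 was larger than that of 97.1% of the tested genes, whose median SD was 0.17. Cy5 signals of Control replicates 2 and 3 were 6873 and 7334 units, and those of the other arrays 11615 to 14831 units.

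Because replicate number is also slide column, the comparison was repeated within columns for each tested member. For Cyp1a2 the AhR-mixture pool was higher than the Control pool in each of the 4 columns. With the replicate number as a block the difference kept its size of 0.26, the SE was 0.11 and the unadjusted p was 0.0406 in limma, with an adjusted p of 1.00. In that fit 1.41% of all probes had an unadjusted p below 0.05 and 0% an adjusted one. Over the other tested members its unadjusted p in limma ran from 0.166 for Ptges3 to 0.567 for Hsp90ab1. Ptges3 was likewise higher in the AhR-mixture pool of each column. The arrays where Cyp1a1 was measurable were among the 4 highest for Cyp1a2.

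Nqo1, the quinone reductase, also varied widely. Its log2 ratio was -0.55, -0.42, -0.97 and -1.26 in AhR-mixture pools, against -0.59, -0.82, -0.10 and -0.30 in Control pools. The lowest arrays were AhR-mixture replicates 4 and 3 and the highest were Control replicates 3 and 4, and between them AhR-mixture replicates 1 and 2 lay above Control replicates 1 and 2. The difference was -0.35 (SE 0.20, 95% interval -0.80 to 0.10; exact permutation p = 0.229, two-sided, n = 4 each). Its pooled SD exceeded that of 93.8% of tested genes. Cyp1a2 and Nqo1, both targets of the receptor, had mean differences of opposite sign, and neither passed the test.

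**Figure D3:**
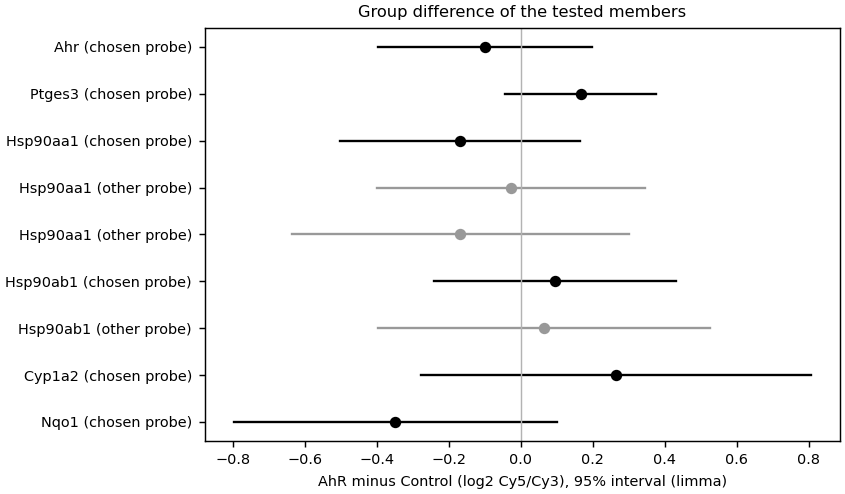
Difference between AhR-mixture and Control pools (log2 ratio) for each probe of the tested members, with its 95% interval from limma; black marks the chosen probe of a gene and grey its other probes. Every interval includes 0, from Nqo1 at -0.35 to Cyp1a2 at 0.26.

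The receptor machinery was then set against the enzymes over the 8 arrays, to ask whether pools with more receptor, partner or chaperone RNA also had more enzyme RNA. Cyp1a1 was left out because it was measured on too few arrays, which left 10 pairs. The 2 pairs with Arnt are counted in the adjustment, but Arnt was above background on 0 arrays, so their r is not read as a relation. Over the other 8 pairs Pearson's r ran from -0.43 to 0.48, and no pair passed after adjustment over the 10. In those 8 the lowest adjusted p was 0.571 for Pearson's r and 0.779 for Spearman's rho (exact permutation, two-sided). For Ahr and Cyp1a2, r was 0.48 (exact permutation p = 0.230, adjusted 0.571) and rho was 0.40 (exact permutation p = 0.327). This moved with single arrays. Without the 2 arrays farthest from the Ahr median r was -0.04, and with each array left out in turn it ran from 0.25, without AhR-mixture replicate 4, to 0.81, without AhR-mixture replicate 1 (exact permutation p = 0.0327, adjusted 0.327). It was 0.63 over deviations from the group means, 0.58 within slide rows and -0.28 within slide columns. A column held an array from each group, so an r within columns rests on the group difference in each column. It takes in any group difference shared by the columns, and so does not by itself measure pools varying together. As a description, 20.4% of the 10003 other genes had an r with Cyp1a2 at least this far from 0.

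Ahr and Nqo1 gave r = -0.39 (exact permutation p = 0.343, adjusted 0.571) and rho = -0.24 (exact permutation p = 0.582), and r was 0.36 without the 2 farthest arrays. Within slide rows it was -0.48 and within slide columns -0.34. AhR-mixture replicate 4, the array of highest Ahr and lowest Nqo1, set the sign, since r was 0.16 without that array. The pairs of Ptges3, Hsp90aa1 and Hsp90ab1 with either enzyme had r from -0.43 to 0.28. Within slide columns Ptges3 with Cyp1a2 was at r = 0.92 (exact permutation p = 0.125) and Ptges3 with Nqo1 at -0.58 (exact permutation p = 0.5). Ptges3 and Cyp1a2 were both higher in the AhR-mixture pool of each column, which alone gives a high r here. A p of 0.125 is the smallest that this permutation can give.

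The genes most like a member over the 8 arrays, among 10003 others, came from outside the pathway lists. For Ahr they were Gpbp1l1, Bmerb1 and Slc6a6 (r = 0.94, 0.93 and 0.92). For Cyp1a2 they were Sqor, a mitochondrial sulfide oxidase, Rnf186 and Zfp275 (r = 0.94, 0.93 and 0.93). For Nqo1 they were Gopc, Fbxo27 and Rbm47, an RNA-binding protein (r = 0.97, 0.97 and 0.96). With 8 arrays and this many genes such values are picked as the highest of many and carry no test.

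In a healthy liver lobule Cyp1a2 is made mainly by hepatocytes around the central vein, and the clock gene Dbp swings over the day. The members were therefore also set against the mean level of companion lists and against Dbp, in 36 pairs that were chosen after values had been seen. No pair passed after adjustment over the 36. The pairs given with a p here and in the next paragraph were picked as those of lowest p for Pearson's r. Among the rest, Nqo1 with the list of NRF2 pathway genes was at r = 0.39. Against Dbp, r was 0.13 for Cyp1a2 and 0.31 for Nqo1. Cyp1a2 went with the pericentral list, 9 tested genes such as Glul and Cyp2e1, at r = 0.83 (exact permutation p = 0.0168, adjusted 0.305) and rho = 0.76 (exact permutation p = 0.0368). The list's mean deviation was 0.33, -0.12, -0.19 and 0.06 in AhR-mixture pools, against 0.20, -0.32, -0.09 and 0.12 in Control pools, high in replicates 1 and 4 of both groups as Cyp1a2 was. Cyp2e1 alone showed the same order, but Glul was lower in replicate 4 than in replicate 3 of both groups. The r of Cyp1a2 with the list was 0.85 over deviations from the group means, 0.84 within slide rows and 0.81 without Cyp7a1. It was -0.06 within slide columns and 0.69 (exact permutation p = 0.15) without the 2 farthest arrays. The r within slide columns rests on the group difference in each column, so it cannot decide whether the relation held within them. Pool and column cannot be told apart here.

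Hsp90ab1 went with the 17 tested partners and co-chaperones of the complex at r = 0.79 (exact permutation p = 0.0169, adjusted 0.305). Its rho was 0.69 (exact permutation p = 0.0694). Its r was 0.72 within slide rows, 0.93 within slide columns and 0.77 without the 2 farthest arrays, with exact permutation p of 0.0955, 0.5 and 0.0917 in that order. The other chaperone members did not share this. Against the same list r was -0.31 for Hsp90aa1, 0.03 for Ptges3 and -0.71 for Ahr. For Cyp1a2 it was -0.07 and for Nqo1 0.50. Nqo1 went with the periportal list at r = 0.72 (exact permutation p = 0.0444, adjusted 0.400) and rho = 0.76 (exact permutation p = 0.0368). This r was 0.76 within slide rows, 0.79 within slide columns and 0.74 without the 2 farthest arrays (exact permutation p = 0.0399, 0.125 and 0.0958). With each array left out in turn it ran from 0.56 to 0.86. The low end was without AhR-mixture replicate 4 (exact permutation p = 0.195), the array lowest in both Nqo1 and the list. Ptges3 went with Dbp at r = 0.72 (exact permutation p = 0.0418, adjusted 0.400) and rho = 0.81 (exact permutation p = 0.0218), and at r = 0.71 within slide rows, 0.60 within slide columns and 0.72 without the 2 farthest arrays (exact permutation p = 0.0816, 0.25 and 0.1). Dbp itself swung widely, at 1.41, 1.22, 0.08 and -2.21 in AhR-mixture pools, against 0.32, -1.36, -1.52 and -0.42 in Control pools.

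**Figure D4:**
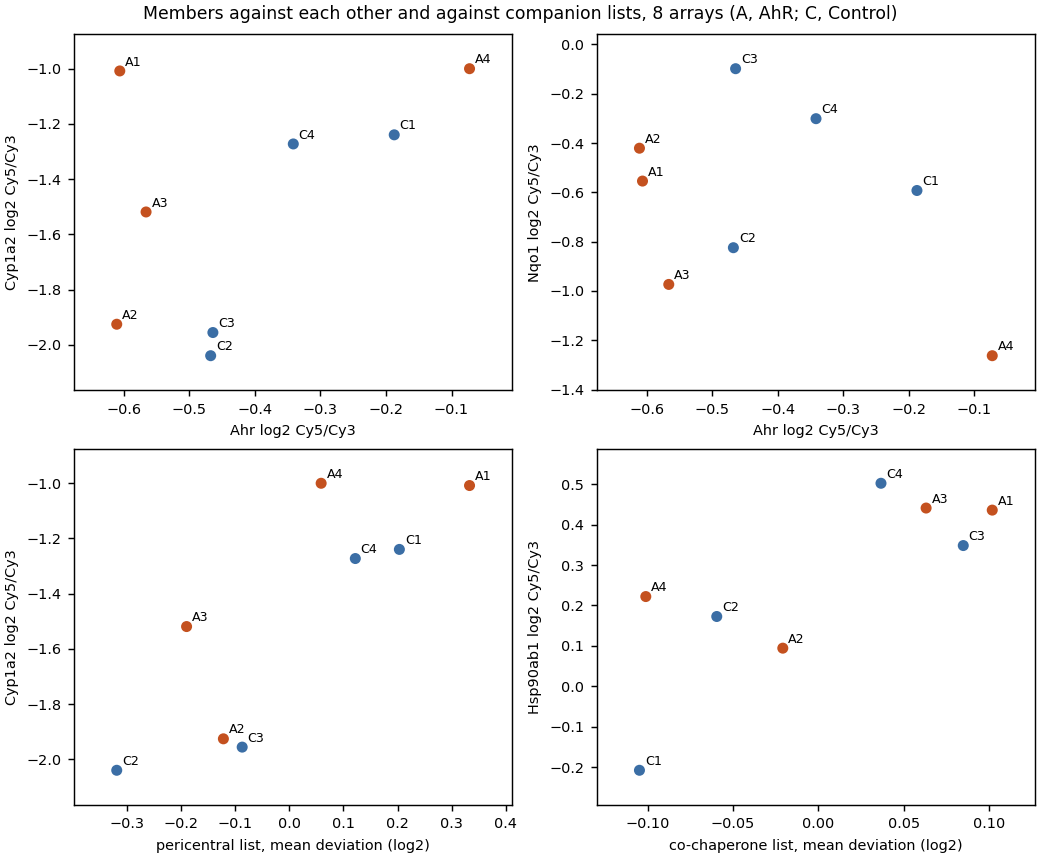
Log2 ratios of members over the 8 arrays (A for AhR-mixture pools, C for Control pools, with the replicate number). Panels show Cyp1a2 and Nqo1 against Ahr, and Cyp1a2 against the mean deviation of the pericentral list. The last panel shows Hsp90ab1 against the mean deviation of the partners and co-chaperones of the complex. AhR-mixture replicate 4 stands apart in both Ahr panels, and in the pericentral panel replicates 1 and 4 of both groups lie above replicates 2 and 3.

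Genes around the members were read by function, and 0 of the genes in any list passed an adjusted p of 0.05 in limma, as 0% of all probes did. Over all 10004 named genes tested, 4947 were higher and 5057 lower in the AhR-mixture pools, with a median difference of 0.00. Of the co-chaperones and partners of the complex, 17 of 18 were tested, 10 higher and 7 lower, with a median of 0.02. Smallest in p were Stub1, a ubiquitin ligase of the chaperone system, at 0.11 (SE 0.10) and St13, an HSP70 partner, at -0.14 (SE 0.13). Of the coregulators, 10 of 15 were tested, 4 higher and 6 lower, with a median of -0.01, and with Sp1 at -0.07 (SE 0.10).

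ARNT shares its DNA-binding and PAS domains with a family of partners and competitors, of which 11 of 17 were tested, 3 higher and 8 lower, with a median of -0.03. Npas2, a clock factor, differed by -0.38 (SE 0.24), Bmal2 by 0.12 (SE 0.08) and Bmal1 by -0.52 (SE 0.41). Ahrr, the receptor's own feedback repressor and target, did not stand well above background anywhere, and neither did Sim1, Sim2 and Npas4.

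Of 15 other targets of the receptor, 8 were tested, 2 higher and 6 lower, with a median of -0.08. Cyp1b1, Ahrr, Scin and Slc7a5 stood well above background on 0 arrays and Aldh3a1 on 1, while Tiparp and Ugt1a1 had no matched probe. Fgf21, a fasting hormone of the liver, differed by 0.35 (SE 0.26) and Nfe2l2, the gene of NRF2, by -0.18 (SE 0.11). Ugt1a6, a glucuronosyltransferase, differed by -0.25 (SE 0.23), and it and the other tested members did not pass the test.

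Nqo1 also answers to NRF2, and 16 of 19 genes of that pathway were tested, 7 higher and 9 lower, with a median of -0.02. Gclc, of glutathione synthesis, differed by 0.25 (SE 0.12) and Gsta3, a glutathione transferase, by -0.39 (SE 0.19). Tryptophan enzymes, some of which make endogenous ligands of the receptor, had 5 higher and 5 lower of 10 tested among 13, a median of 0.01, with Acmsd at -0.28 (SE 0.28) and Kyat1 at 0.15 (SE 0.09). Heat shock genes had 6 higher and 6 lower of 12 tested among 15, a median of -0.02, with Hspa8 at 0.21 (SE 0.21) and Cryab at -0.17 (SE 0.18).

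P450 enzymes need electrons and heme, and all 15 genes of that list were tested, 5 higher and 10 lower, with a median of -0.03. Por, the reductase that feeds electrons to Cyp1a2 and other P450s, differed by 0.46 (SE 0.29) and Cyb5r3 by 0.17 (SE 0.12). Clock genes had 7 higher and 5 lower of 12 tested among 16, a median of 0.05, with Tef at 0.48 (SE 0.25) and Npas2 as above. Pericentral genes had 5 higher and 4 lower of 9 tested among 10, a median of 0.03, with Cyp2e1 at 0.23 (SE 0.33) and Rgn at -0.17 (SE 0.13). Periportal genes had 5 higher and 5 lower of 10, a median of 0.01, with Asl at 0.25 (SE 0.21) and Cyp2f4 at -0.17 (SE 0.11).

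**Figure D5:**
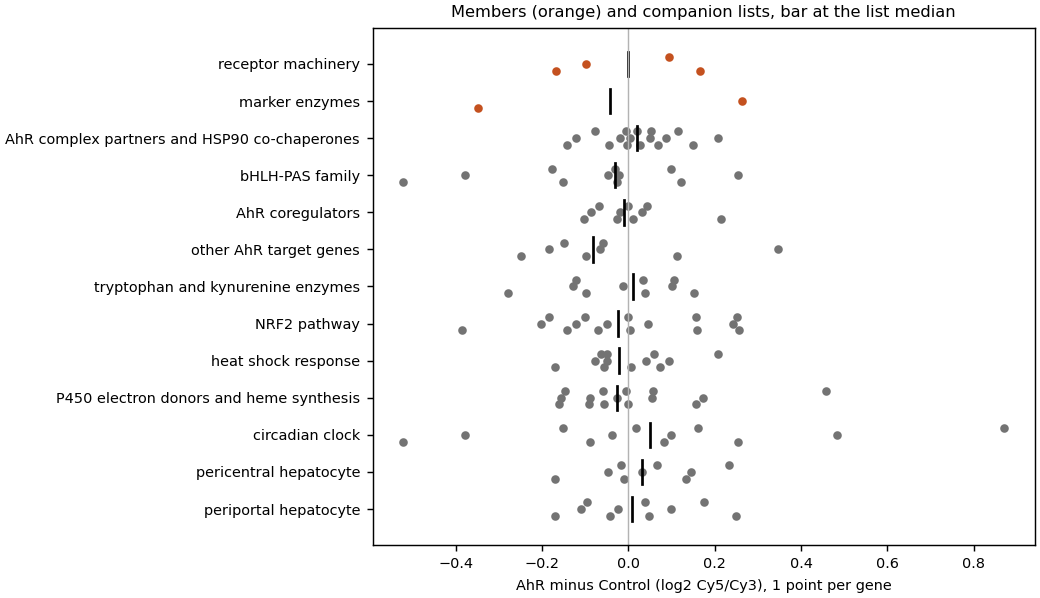
Difference between AhR-mixture and Control pools (log2 ratio) of every tested gene, one point per gene, for the members (orange) and each companion list (grey), with a bar at the list median. List medians lie between -0.08 for the other targets of the receptor and 0.05 for the clock genes.

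Markers of other liver cells were read beside the members. Kupffer cell genes were 9 higher and 1 lower of 10 tested, with a median of 0.15, stellate and matrix genes 8 higher and 1 lower of 9 (median 0.11), endothelial genes 6 and 1 of 7 (median 0.06), and cholangiocyte genes 4 and 1 of 5 (median 0.10). Erythroid genes were 0 higher and 6 lower of 6, with a median of -0.35, skeletal muscle genes 1 and 5 of 6 (median -0.05) and hepatocyte genes 6 and 6 of 12 (median 0.03). No marker passed an adjusted p of 0.05 in limma. The mean deviation of the Kupffer list ran from -0.16 to 0.49 in AhR-mixture pools and from -0.76 to 0.24 in Control pools, with the low end at Control replicate 1, the array of the lowest Hsp90ab1 and the highest Cyp1a1. That of the erythroid list ran from -0.68 to 0.28 in AhR-mixture pools and from -0.13 to 1.00 in Control pools. Their part in the members' values was not tested.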

How the data were processed

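Intensity values per spot (medians of signal and background) and a log10 ratio were deposited by the authors in the scanner software's output; its version, per the file headers, was Feature Extraction 10.7.3.1. The deposited processed signals served as an alternative, and the log10 ratio was not used. A deposited log2 value table of unstated scale followed log2 Cy5 over Cy3 without background subtraction (slope 0.978 to 0.988, column medians 0.00569 to 0.0165), and its exact dye correction stays unknown. Here, limma 3.58.1 under R 4.3.3 corrected the background (normexp, offset 50) and normalized each array by loess, giving control spots and flagged outliers weight 0. Unflagged spots of 1 probe were averaged. Probes with Cy5 well above background on at least 4 of 8 arrays were kept (17859 of 30367). Accessions were matched to RefSeq GRCr8 genes, since the files carry no symbols. A gene was read from its probe of highest mean Cy5 signal. The group contrast used lmFit and eBayes, Benjamini-Hochberg adjusted over all kept probes; the procedure was tested on simulated data. Exact permutation tests were two-sided. Between the 2 most alike arrays the SD of differences was 0.21, against 0.10 expected from duplicate spots, so no array was treated as a duplicate. The number of arrays limits the precision.

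Members and lists were chosen with earlier results of these data known. Named genes were all members, the 2 of smallest p in each list, Ahrr, the 3 genes most like Ahr, Cyp1a2 and Nqo1, and the clock markers Dbp and Bmal1; some genes under this rule are not reported here, and other names are listed for their signal, or were chosen after values were seen. Alternatives covered background correction, normalization, Cy5 alone, the filter, blocks, the deposited log2 table and leaving out each array.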

Additional observations from a re-analysis of the deposited data

Results flagged for a closer look

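In groups of 4 arrays, a value was picked out where its gap to the nearest other array exceeded 0.829 of the group's range. Of 16 groups tested 3 were picked out, and chance picks about 1 in 20. Ahr in AhR-mixture replicate 4 had a log2 ratio of -0.073, with the nearest of its group at -0.57, a gap of 0.917 of the range. Cyp1a1 in AhR-mixture replicate 1 had a Cy5 signal of 181 units, with the nearest at 89.6 units; the other 3 arrays were not above background, so this gap of 0.963 is to background-level signals. Cyp1a1 in Control replicate 1 had a log2 ratio of -4.28, with the nearest at -5.79. Cy5 of Control replicates 2 and 3 was not above background, so the range behind this gap has no defined lower end. The last 2 values come from the same slide column. Causes were not tested.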

How the results depend on the processing

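The count of probes past an adjusted p of 0.05 was 0 under all 19 alternatives run in limma, against 288 at an unadjusted p below 0.05 in the main setting. The differences of Ahr, Ptges3, Hsp90aa1, Cyp1a2 and Nqo1 kept their sign and stayed short of the threshold under all 19 alternatives, and that of Hsp90ab1 ranged from -0.043 to 0.19 with single arrays left out. With arrays left out the others ranged from -0.23 to -0.04 (Ahr), 0.11 to 0.21 (Ptges3), -0.26 to -0.065 (Hsp90aa1), 0.13 without Control replicate 2 to 0.45 without AhR-mixture replicate 2 (Cyp1a2) and -0.48 to -0.20 without AhR-mixture replicate 4 (Nqo1). Ahr was -0.36 with processed signals. With the replicate block, also the slide column, r of Ahr with Cyp1a2 was -0.28 and of Cyp1a2 with the pericentral list -0.063, and the block changed no other call. Without the 2 farthest arrays r was -0.038 for Ahr with Cyp1a2, 0.36 for Ahr with Nqo1 and -0.47 for Ptges3 with Cyp1a2. Under median centring r was -0.051 for Arnt, 0.45 for Ptges3 and 0.28 for Hsp90aa1 with Nqo1. With Cy5 alone it was 0.038 for Hsp90aa1 with Nqo1 and -0.21 for Hsp90ab1 with Cyp1a2, which was -0.0034 with the mean of all probes. With each array left out in turn, r ran from 0.25 to 0.81 for Ahr with Cyp1a2, -0.047 to 0.50 for Hsp90ab1 with Cyp1a2, -0.57 to 0.16 for Ahr with Nqo1, -0.087 to 0.44 for Ptges3 with Cyp1a2, -0.70 to 0.025 for Ptges3 with Nqo1, -0.77 to 0.041 for Hsp90aa1 with Nqo1 and -0.052 to 0.26 for Hsp90ab1 with Nqo1. Pools of the same replicate number did not deviate together over all genes (correlations of 0.0027, -0.062, 0.048 and -0.37), so the numbers were not taken as pairs. The causes were not tested. The alternatives for the companion relations were chosen after seeing the data. Dim Cy5 signal limits Ahr, Arnt and Cyp1a1.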
